A study of Homo sapiens with 8 samples.

Results

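Synaptic vesicle and exocytosis genes were followed across 8 RNA-seq libraries of SK-N-SH, a human neuroblastoma cell line. The set was a fixed list of 50 gene symbols out of the 60659 genes counted, chosen by function: 9 proteins of the vesicle membrane or surface, 14 synaptotagmins, 4 SNAREs, 4 SNARE regulators, 3 RAB3 GTPases with 1 effector, 12 active zone and priming factors and 3 endocytic proteins. All cells were shifted to a differentiation medium with all-trans retinoic acid (ATRA, labelled RA) at 10 µM for 24 h. The 4 groups, each of 2 libraries labelled as biological replicates, were parental cells with RA and Dox, FLAG ZMYND8 cells with RA and Dox, Control KD cells with RA, and ZMYND8 KD cells with RA. The 2 Control KD libraries are titled CONTROLI_RA and CONTROLII_RA, and whether these name separate controls is not given in the sources used here. ZMYND8 is a chromatin reader that binds acetylated and methylated histones. According to the methods, ZMYND8 was expressed in SK-N-SH from a lentiviral pInducer20 vector, with G418 selection of transduced cells, while the FLAG tag is named by the labels. The methods describe lentiviral shRNA against ZMYND8 and name SH-SY5Y and neural stem cells for its selection, so how the libraries labelled ZMYND8 KD were made in SK-N-SH is not given in the sources used here. Parental cells are named without an empty vector, so vector and selection cannot be told apart from ZMYND8 in the overexpression comparison. The knockdown libraries are named without Dox, and only the overexpression experiment had it.

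Synaptic vesicles store neurotransmitter and fuse with the plasma membrane when calcium enters the nerve ending. Priming factors of the UNC13 and RIM families and the scaffolds Bassoon and Piccolo hold vesicles at the active zone. The vesicle SNARE synaptobrevin then zippers with the membrane SNAREs syntaxin and SNAP-25, complexins hold the assembled complex, and synaptotagmins sense calcium. Clathrin adaptors, amphiphysin and dynamin take the vesicle membrane back. Neuroblastoma cells derive from the sympathetic lineage and can carry much of this machinery, together with dense core vesicles that hold noradrenaline.

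The libraries held 38316523 to 56256979 counts on genes. ZMYND8 itself had 3089 and 3612 counts in parental and 220691 and 182849 counts in overexpressing cells, and 3128 and 3374 counts in the KD control and 1641 and 1640 counts in the knockdown. Its log2 fold change was 5.86 ± 0.06 (SE, as for every fold change here) with overexpression and -0.94 ± 0.06 with knockdown, so the knockdown was partial at the RNA level. The labelled cell type held noradrenergic markers, of which 9 of 10 were tested with overexpression, 6 called higher and none lower. It also held mesenchymal markers, of which 10 were tested, 1 called higher (TWIST1) and 6 lower. Over all genes tested, 11.7% were called higher and 6.79% lower. SK-N-SH is known to carry both kinds as a mixture of neuroblastic and substrate-adherent cells. In these bulk samples, more cells of a type and more RNA per cell cannot be told apart. TH, which makes the first step of noradrenaline synthesis, had 0 to 5 counts in each library.

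A call required 3 things: an adjusted p (Benjamini-Hochberg) below 0.05 in edgeR's quasi-likelihood test, a change of 1 or more on the log2 scale in either direction, and a normalized count over 20 on average. With overexpression against parental cells, 35 of the 50 genes were called higher, where 11.7% of all 20835 genes tested were, and 1 was called lower, where 6.79% of all genes were. The adjusted p of these 36 genes ranged from 1.13e-16 to 0.0130. Among them SYN3, SV2B, SYT13, DOC2B and AMPH had at most 7 counts in a parental library. They passed the filter on low counts and the threshold on the mean only through the overexpression libraries. SYN1, at a mean of 16.5 normalized counts in the parental libraries, passed the threshold on the mean in this way too. SYT6 and UNC13C, without a parental count, passed the filter on low counts in the same way and enter the median below. The same filter and threshold were used for all genes. With knockdown against its control none of the 47 genes tested was called in either direction, where 1.34% of all 19789 genes were called higher and 0.551% lower. DESeq2 also called 0 there, and at an unadjusted p below 0.05 in edgeR's test 5 of the 47 were higher, where 19.3% of all genes tested were, and 19 lower, where 17.3% were. The median log2 fold change of the 50 genes was 2.26 with overexpression, against 0.03 over all genes tested, and 2.26 also with the 2 genes without a parental count set at their lower bound. In the knockdown the median of the 47 genes was -0.15, against -0.01 over all genes tested.

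Levels are given below in TPM, counts per summed exon length scaled to the same total in each library, which allows genes to be compared. Fold changes rest on TMM-scaled counts instead. In the model of all 8 libraries the TMM factors were 0.953 and 0.952 in the parental and 1.14 and 1.15 in the overexpression libraries. On that scale equal TPM in both groups corresponds to a fold change below 0. The fit of the overexpression experiment alone had its own factors, which are not given here. The summed level of the 50 genes was 635 and 672 TPM in the parental libraries, 1284 and 1470 TPM with overexpression, 1075 and 1159 TPM in the KD control, and 988 and 1002 TPM with knockdown. In TMM-normalized counts, both overexpression libraries lay above both parental libraries for 42 genes, where 40.5% of all 22619 genes did, and below them for 5, where 37.4% did, and the groups overlapped for SV2A, SYT1 and SYT11.

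**Figure D1:**
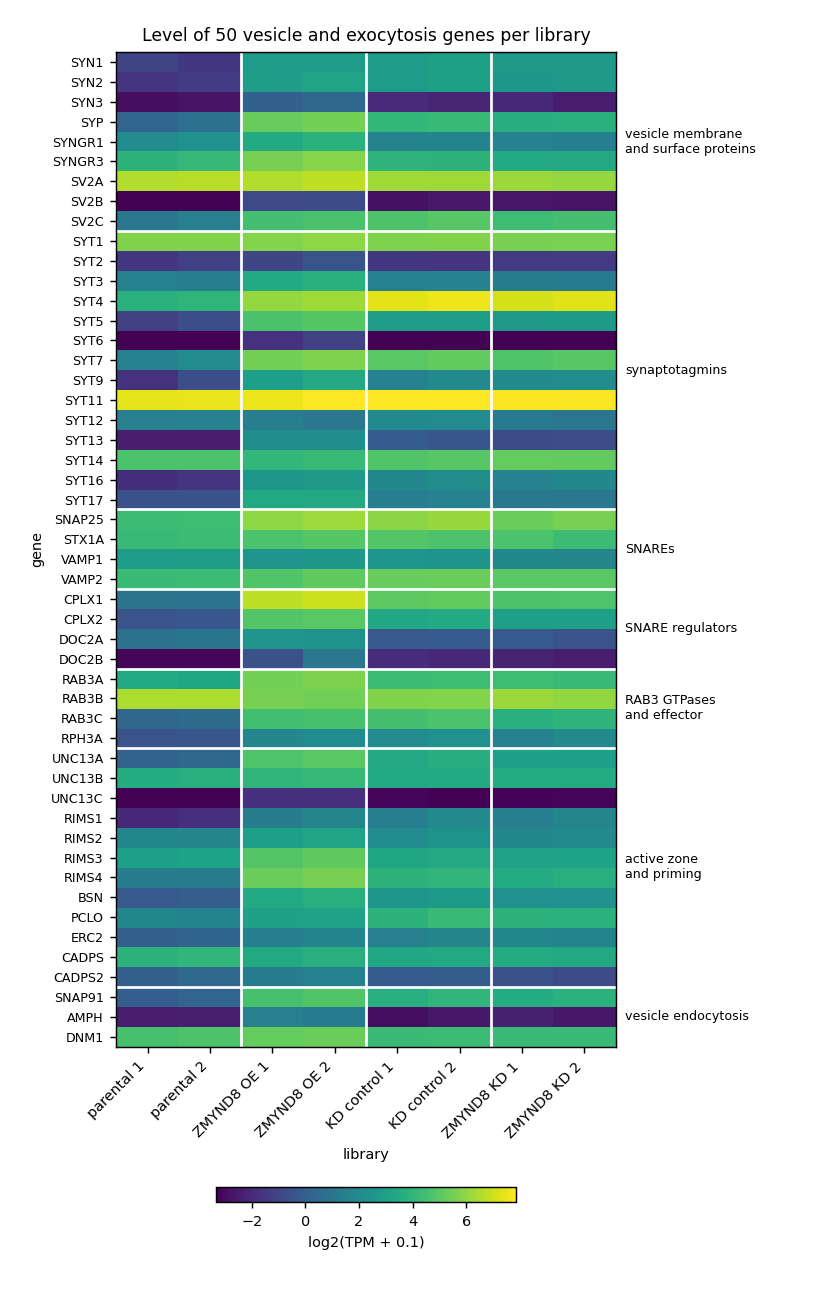
Level of each of the 50 genes, as the log2 of TPM plus 0.1 (colour), in each of the 8 libraries, with genes grouped by role. Most rows were darker in the 2 parental libraries than in the other 6, while SV2A, SYT1, SYT11 and RAB3B were bright throughout.

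**Figure D2:**
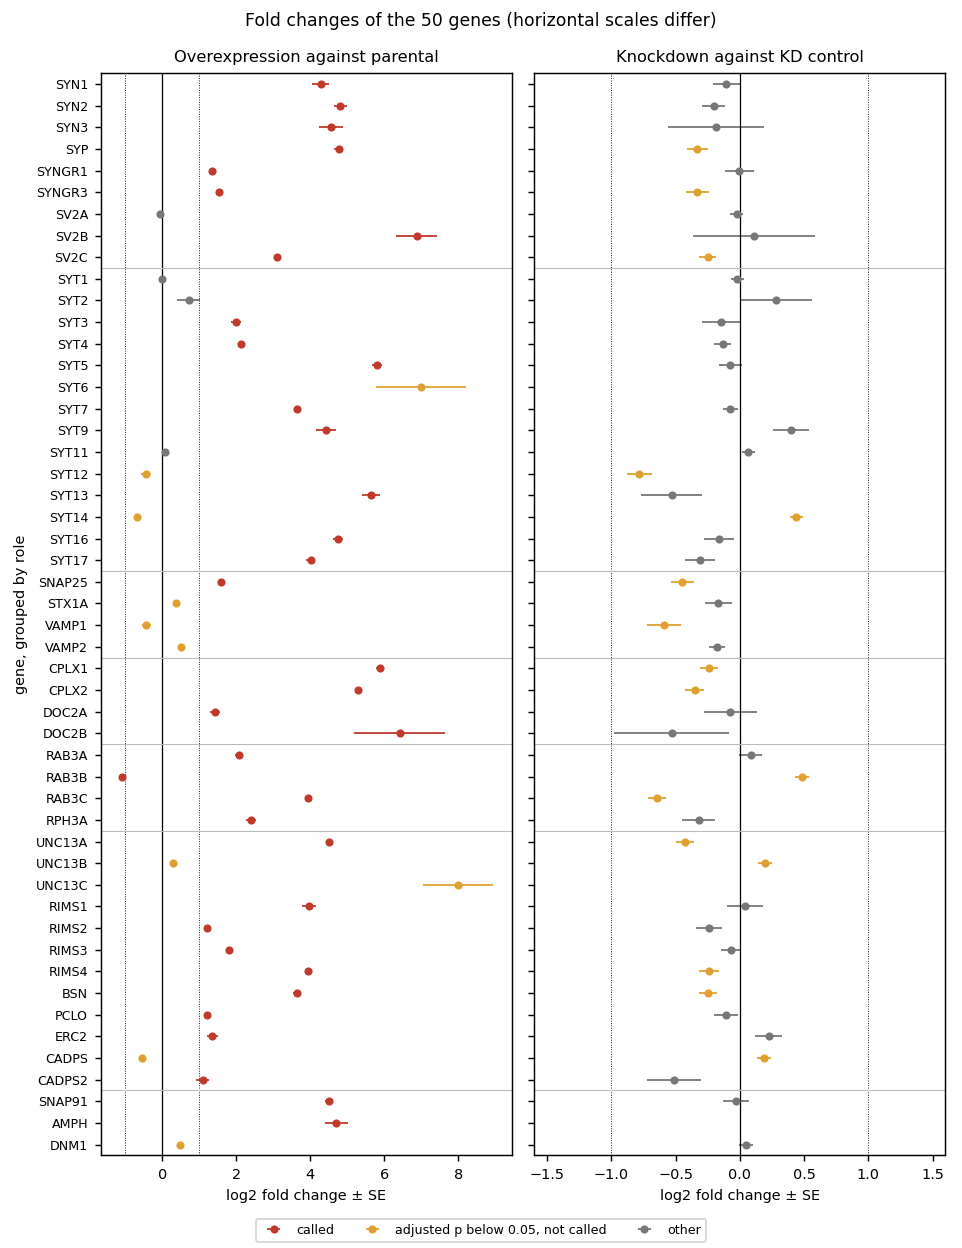
Log2 fold change with its SE for each gene in the overexpression comparison (left) and the knockdown comparison (right, on a narrower scale), with dotted lines at -1 and 1. Red points were called, orange points had an adjusted p below 0.05 without being called, and SYT6, UNC13C and AMPH have no knockdown value because they were not tested there.

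Promoter windows, 250 bases before to 50 after each RefSeq gene start (GRCh38.p14), were matched for 37 of the 50 genes, in 58 windows because several genes have more than 1 start. The 13 genes not matched were CADPS2, CPLX1, DOC2A, DOC2B, RIMS2, RIMS4, SNAP25, SYN3, SYNGR3, SYT7, SYT12, SYT13 and SYT17. Both strands were searched for TTCAGCACC and for GGACAG, the left and right parts of the RE1 element that the repressor REST binds, and for other short motifs. The left part TTCAGCACC occurred in 132 of all 35116 windows (0.376%) and in 2 of the genes' windows, those of SYN1 and UNC13A, both genes called higher with overexpression. In these 2 windows both parts stood on 1 strand in the order left, right with at most 10 bases between them, as in 15 of all windows (0.0427%). The stretches below show the RE1 parts in SYN1 and UNC13A, the GC boxes of SYP, a vesicle gene with a large change, and, for comparison, the window of RAB3B, the 1 gene called lower. Each is written 5′ to 3′ on the strand of the gene, and capitals mark motifs: in SYN1 (chrX:47619998-47620107, minus strand) both RE1 parts and the cyclic AMP response element TGACGTCA, in UNC13A (chr19:17688335-17688434, minus strand) the GC box CCGCCC and the RE1 parts as they read from the opposite strand, and in SYP (chrX:49200194-49200303, minus strand) and RAB3B (chr1:51990701-51990800, minus strand) the GC box in either direction.
SYN1: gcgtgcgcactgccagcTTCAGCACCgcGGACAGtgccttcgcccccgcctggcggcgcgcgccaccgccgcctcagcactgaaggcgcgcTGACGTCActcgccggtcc
UNC13A: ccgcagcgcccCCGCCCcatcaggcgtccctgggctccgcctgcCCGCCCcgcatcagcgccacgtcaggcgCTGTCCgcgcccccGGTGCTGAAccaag
SYP: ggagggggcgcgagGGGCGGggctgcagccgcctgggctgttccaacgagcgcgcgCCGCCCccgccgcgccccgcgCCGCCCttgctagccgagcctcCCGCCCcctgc
RAB3B: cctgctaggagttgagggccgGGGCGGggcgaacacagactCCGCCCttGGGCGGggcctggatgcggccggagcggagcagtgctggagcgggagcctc

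The left RE1 part of SYN1 began 233 bases before the gene start and the right part 222 bases before it, while in UNC13A they lay across the start, the right part beginning 8 bases before and the left part 6 bases after it. The right part alone, a short sequence, was in 12 of the genes' windows (20.7%) and in 20.5% of all windows. The GC box, which Sp factors bind, was in 37 of the 58 windows (63.8%) against 45% of all windows, and the median GC content of the genes' windows was 67% against 58.7% over all. The TATA box TATAAA was in 2 windows (3.45%), of SV2B and SYT16, against 11.5% of all. TGACGTCA was in 1 window, that of SYN1 (1.72%), against 1.85% of all, and the E-box CAGCTG in 9 (15.5%) against 17.9%. A direct repeat of AGGTCA with 5 bases between, as retinoic acid receptors bind, was in none of the genes' windows and in 2 of all windows. Binding was not measured in these libraries, and the matches describe letters in these windows only.

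Of the 9 vesicle membrane and surface proteins, 8 rose with overexpression and SV2A did not pass the test. Their median log2 fold change was 4.28, and their summed level went from 116 and 128 TPM in parental to 231 and 267 TPM in overexpressing cells. The synapsins, phosphoproteins that tether vesicles in the reserve pool, rose together from a summed 0.651 and 0.605 TPM to 15.5 and 17.1 TPM. SYN1 stood at 0.389 and 0.255 TPM in parental cells and 6.83 and 6.88 TPM in overexpressing cells, against 6.96 and 8.04 TPM in the KD control and 6.32 and 6.55 TPM in the knockdown. SYN1 rose by a log2 fold change of 4.28 ± 0.22. SYN2 gave 0.229 and 0.30 TPM in parental and 7.69 and 9.0 TPM in overexpression libraries, and 7.07 and 8.11 TPM in KD control and 5.95 and 6.22 TPM in knockdown libraries. SYN2 rose by a log2 fold change of 4.81 ± 0.17. Their proportions within the family stayed near each other, SYN1 making up 50.9% of synapsin TPM on average in parental and 42.1% in overexpressing cells, and SYN2 42.4% and 51%. SYN3, the third synapsin, was at 0.0335 and 0.0502 TPM in the parental libraries, 1.01 and 1.26 TPM with overexpression, 0.148 and 0.126 TPM in the KD control and 0.139 and 0.0843 TPM with knockdown. SYN3 rose by a log2 fold change of 4.56 ± 0.32. In the KD control SYN3 was lower than with overexpression while SYN1 and SYN2 were at a like level. Of the exonic bases of SYN1, 24.9% lie in exons of another annotated gene on the same strand, so part of its counts may be shared.

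SYP, synaptophysin, a 4-span membrane protein that is among the most abundant of the vesicle, stood at 1.14 and 1.61 TPM in parental cells and 38.1 and 45.6 TPM in overexpressing cells, against 16.6 and 18.9 TPM in the KD control and 12.2 and 13.7 TPM in the knockdown. SYP rose by a log2 fold change of 4.77 ± 0.11. SYNGR3, a synaptogyrin of the same protein family, gave 14.8 and 17.4 TPM in parental and 47.5 and 55.9 TPM in overexpression libraries, and 15.4 and 14.6 TPM in KD control and 11.4 and 10.7 TPM in knockdown libraries. SYNGR3 rose by a log2 fold change of 1.54 ± 0.08. SYNGR1, its paralogue, rose by a smaller log2 fold change of 1.36 ± 0.10. The SV2 glycoproteins differed from each other. SV2A, the binding site of the antiseizure drug levetiracetam, was at 93.1 and 100.3 TPM in the parental libraries, 95.4 and 109.5 TPM with overexpression, 77.3 and 77.4 TPM in the KD control and 72.4 and 68.6 TPM with knockdown. The log2 fold change of SV2A was -0.06 ± 0.05, which was not called. Both groups of the overexpression experiment overlapped for SV2A once scaled by TMM. SV2C stood at 2.14 and 2.81 TPM in parental cells and 22.6 and 24.6 TPM in overexpressing cells, against 26.3 and 30.5 TPM in the KD control and 20.9 and 23.1 TPM in the knockdown. SV2C rose by a log2 fold change of 3.1 ± 0.09. SV2C thus went from 2.49% of the summed SV2 TPM in parental cells to 18.7% with overexpression, and SV2A from 97.5% to 80.9%. SV2B had 0 and 1 counts in the parental libraries and 83 and 68 counts with overexpression, a ratio of 145 with a 95% counting interval of 25.7 to 5780. Its level was 0 and 0.00533 TPM in parental, 0.448 and 0.479 TPM in overexpressing, 0.0397 and 0.071 TPM in KD control and 0.0601 and 0.0501 TPM in knockdown cells. The fitted log2 fold change of SV2B, 6.88, was 6.14 without parental replicate 1 and 9.18 without parental replicate 2.

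Of the 14 synaptotagmins, 8 rose with overexpression and none was called lower. SYT3, SYT4, SYT5, SYT7, SYT9, SYT13, SYT16 and SYT17 rose, while the members with the highest parental levels, SYT11, SYT1 and SYT14, did not. SYT1, the calcium sensor of fast release, gave 52.8 and 52.9 TPM in parental and 55.4 and 61 TPM in overexpression libraries, and 51.1 and 53.8 TPM in KD control and 47.7 and 48 TPM in knockdown libraries. The log2 fold change of SYT1 was -0.01 ± 0.05, which was not called. SYT11, which does not bind calcium through its first C2 domain, was at 172 and 186 TPM in the parental libraries, 192 and 227 TPM with overexpression, 225 and 231 TPM in the KD control and 220.1 and 221 TPM with knockdown. The log2 fold change of SYT11 was 0.08 ± 0.05, which was not called. SYT11 had the highest mean level of all 50 genes, 209 TPM over the 8 libraries. SYT4, a close relative of SYT11 found on dense core vesicles, stood at 13.9 and 15.6 TPM in parental cells and 67.5 and 76.2 TPM in overexpressing cells, against 166 and 190.1 TPM in the KD control and 142 and 157 TPM in the knockdown. SYT4 rose by a log2 fold change of 2.14 ± 0.06. SYT4 was the second most abundant of the 50 genes by mean level, and its highest values were in the KD control. SYT7, a high-affinity sensor of slow release, gave 2.95 and 4.04 TPM in parental and 46.1 and 51.8 TPM in overexpression libraries, and 31.8 and 35.6 TPM in KD control and 28.4 and 30.7 TPM in knockdown libraries. SYT7 rose by a log2 fold change of 3.66 ± 0.10. Of the synaptotagmin TPM, SYT11 made up 63.1% in parental and 43.6% in overexpressing cells, SYT4 5.21% and 15%, and SYT7 1.23% and 10.2%.

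SYT5, a calcium-binding synaptotagmin of synaptic and dense core vesicles, was at 0.328 and 0.534 TPM in the parental libraries, 24.6 and 29.8 TPM with overexpression, 7.31 and 7.48 TPM in the KD control and 6.36 and 6.63 TPM with knockdown. SYT5 rose by a log2 fold change of 5.8 ± 0.14. After CPLX1, SYT5 had the largest change of the genes with a mean normalized count above 100. SYT9, a fast calcium sensor like SYT1, stood at 0.214 and 0.536 TPM in parental cells and 7.7 and 10.8 TPM in overexpressing cells, against 2.92 and 3.81 TPM in the KD control and 3.86 and 4.34 TPM in the knockdown. SYT9 rose by a log2 fold change of 4.43 ± 0.28. SYT9 held 12 and 35 parental counts. Its log2 fold change ranged from 3.96 to 5.23 over the alternative settings, the highest being that without parental replicate 2. SYT3, a sensor with high calcium affinity, gave 2.93 and 2.74 TPM in parental and 11.3 and 13.7 TPM in overexpression libraries, and 2.86 and 2.96 TPM in KD control and 2.48 and 2.38 TPM in knockdown libraries. SYT3 rose by a log2 fold change of 2.00 ± 0.13. The synaptotagmins that do not bind calcium moved in both directions. SYT13 was at 0.0784 and 0.0805 TPM in the parental libraries, 4.32 and 4.63 TPM with overexpression, 0.843 and 0.704 TPM in the KD control and 0.464 and 0.526 TPM with knockdown. SYT13 rose by a log2 fold change of 5.64 ± 0.25. SYT16 stood at 0.179 and 0.235 TPM in parental cells and 5.93 and 6.5 TPM in overexpressing cells, against 3.47 and 4.51 TPM in the KD control and 3.02 and 3.56 TPM in the knockdown. SYT16 rose by a log2 fold change of 4.75 ± 0.13. SYT14, the nearest relative of SYT16, gave 25.7 and 25.6 TPM in parental and 16.8 and 18.9 TPM in overexpression libraries, and 27.8 and 31 TPM in KD control and 37.4 and 36.2 TPM in knockdown libraries. The log2 fold change of SYT14 was -0.67 ± 0.05, which was not called. SYT14 fell by less than the fold threshold, with an adjusted p of 1.40e-08 by edgeR's quasi-likelihood test, while SYT16 rose. SYT17, also known as B/K protein, was at 0.611 and 0.61 TPM in the parental libraries, 11 and 10.7 TPM with overexpression, 2.76 and 2.97 TPM in the KD control and 2.17 and 2.1 TPM with knockdown. SYT17 rose by a log2 fold change of 4.01 ± 0.13.

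SYT12, a further calcium-independent member, had a log2 fold change of -0.43 ± 0.13 and SYT2, the fast sensor of the hindbrain and neuromuscular junction, one of 0.71 ± 0.31 (adjusted p of 0.0117 and 0.0567 by edgeR's quasi-likelihood test). SYT2 held 22 to 52 counts a library, and 27.0% of its exonic bases lie opposite PPP1R12B, whose reads cannot be told apart where strand was not used. SYT6 had 14 and 18 counts with overexpression and 0 in each of the other 6 libraries, so that its level was at least 5.2-fold higher than in parental cells on a floor of 3 counts per library. It was not called because its mean was under 20.

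**Figure D3:**
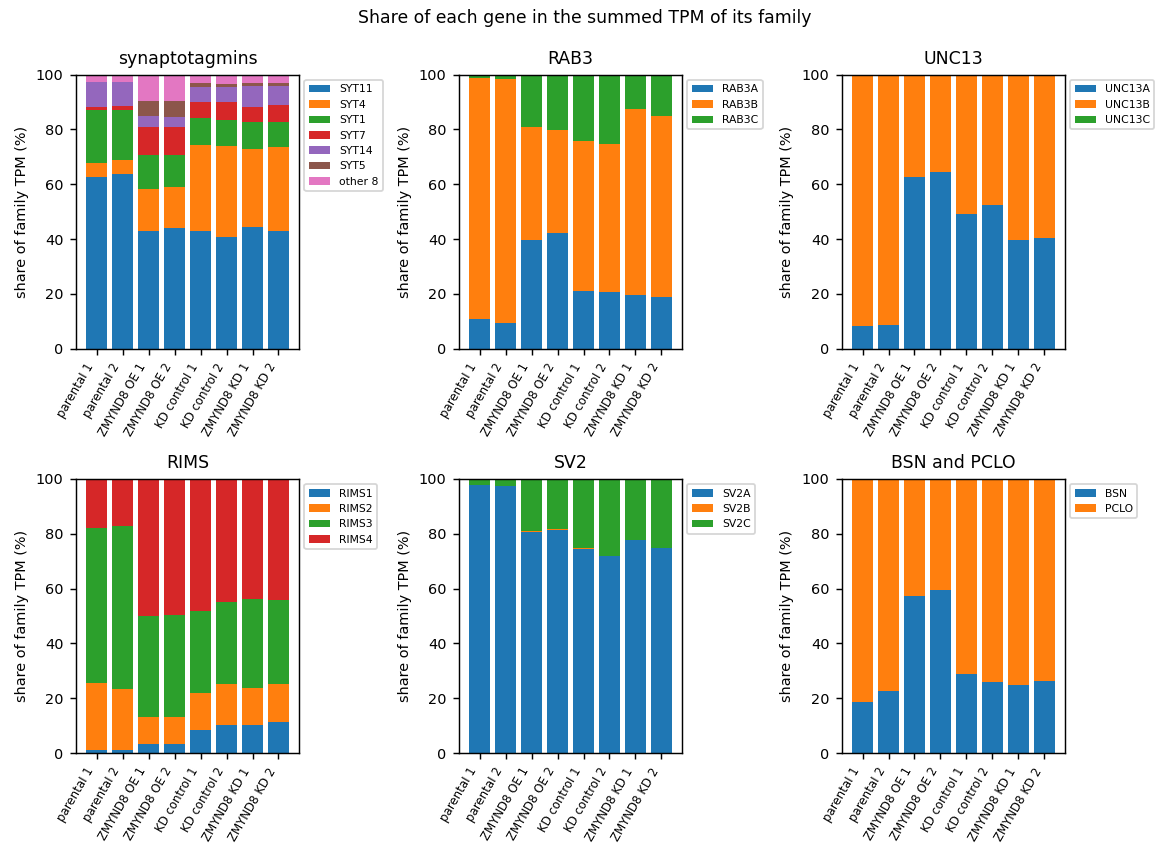
Share of each gene in the summed TPM of its family, for 6 families and each of the 8 libraries; the 8 synaptotagmins of lowest share are pooled. The 2 parental libraries were dominated by 1 gene in most families, SYT11, RAB3B, UNC13B, SV2A or PCLO, and the bars of the other groups were more evenly divided.

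The 4 SNAREs, which form the fusion complex, moved least of the roles. Only SNAP25 was called, and the median log2 fold change of the 4 genes was 0.44. SNAP25, which gives 2 helices to the complex, stood at 19.9 and 20.7 TPM in parental cells and 61.2 and 75 TPM in overexpressing cells, against 59.3 and 70.3 TPM in the KD control and 40.2 and 47.2 TPM in the knockdown. SNAP25 rose by a log2 fold change of 1.6 ± 0.07. VAMP2, synaptobrevin 2 of the vesicle, gave 19.4 and 20.2 TPM in parental and 28.3 and 34.3 TPM in overexpression libraries, and 37.9 and 39.1 TPM in KD control and 31.6 and 31.3 TPM in knockdown libraries. The log2 fold change of VAMP2 was 0.51 ± 0.08, which was not called. VAMP2 and STX1A, syntaxin of the plasma membrane, had an adjusted p below 0.05 by edgeR's test without reaching the fold threshold, and the log2 fold change of STX1A was 0.37 ± 0.08. VAMP1, the paralogue of VAMP2, had one of -0.43 ± 0.13, below 0 in place of above it. Of the exonic bases, 12.4% of VAMP2 lie in another gene on its strand, 17.9% of STX1A lie opposite BUD23 and 10.4% of VAMP1 opposite TAPBPL.

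All 4 SNARE regulators rose. The complexins, which clamp the assembled SNARE complex and promote its fast fusion, rose from a summed 2.53 TPM in either parental library to 140 and 160 TPM with overexpression. CPLX1 was at 1.85 and 1.8 TPM in the parental libraries, 111 and 128 TPM with overexpression, 33.3 and 35.3 TPM in the KD control and 26.7 and 27 TPM with knockdown. CPLX1 rose by a log2 fold change of 5.88 ± 0.10. CPLX2 stood at 0.681 and 0.729 TPM in parental cells and 29.3 and 32.1 TPM in overexpressing cells, against 10.4 and 11.2 TPM in the KD control and 7.81 and 7.89 TPM in the knockdown. CPLX2 rose by a log2 fold change of 5.3 ± 0.09. CPLX1 had the largest change of the 50 genes among those with more than 3 counts in each parental library. The proportion of CPLX1 in complexin TPM was 72.2% in parental and 79.5% in overexpressing cells. DOC2 proteins are soluble calcium sensors of spontaneous and asynchronous release. DOC2A gave 1.7 and 1.95 TPM in parental and 5.56 and 5.26 TPM in overexpression libraries, and 0.778 and 0.841 TPM in KD control and 0.804 and 0.62 TPM in knockdown libraries. DOC2A rose by a log2 fold change of 1.43 ± 0.13. DOC2B, its paralogue, was at 0.0132 and 0.0113 TPM in the parental libraries, 0.584 and 2.08 TPM with overexpression, 0.168 and 0.141 TPM in the KD control and 0.109 and 0.0886 TPM with knockdown. DOC2B had 1 and 1 counts in the parental libraries and 51 and 139 counts with overexpression, a ratio of 91.5 with a 95% counting interval of 25 to 761. An alternate contig of the assembly repeats 99.4% of its exonic 31-base sequences, so reads of DOC2B may have been dropped or kept unevenly and its value is uncertain. Its call was lost without either parental replicate, with an adjusted p of 0.242 and 0.282 by edgeR's test, and without overexpression replicate 2, when its mean fell under 20. Its fitted log2 fold change, 6.41, was 7.06 without overexpression replicate 1 and 5.33 without overexpression replicate 2.

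The RAB3 GTPases, which recruit vesicles to the active zone, split. RAB3B stood at 89 and 88.3 TPM in parental cells and 47 and 44.4 TPM in overexpressing cells, against 52.6 and 54.4 TPM in the KD control and 72.5 and 65.8 TPM in the knockdown. RAB3B fell, with a log2 fold change of -1.1 ± 0.06. RAB3B was the 1 gene of the 50 called lower, and both overexpression libraries lay below both parental libraries. With a correction for gene length its log2 fold change was -0.99, short of the threshold, and it was then not called. RAB3A, the main form of brain synapses, gave 11.2 and 9.37 TPM in parental and 45.7 and 49.5 TPM in overexpression libraries, and 20 and 20.7 TPM in KD control and 21 and 18.9 TPM in knockdown libraries. RAB3A rose by a log2 fold change of 2.07 ± 0.11. RAB3C was at 1.23 and 1.46 TPM in the parental libraries, 22 and 23.8 TPM with overexpression, 23.1 and 25.3 TPM in the KD control and 13.4 and 15.1 TPM with knockdown. RAB3C rose by a log2 fold change of 3.94 ± 0.08. RAB3B went from 88.4% of RAB3 TPM in parental cells to 39.4% with overexpression, RAB3A from 10.2% to 40.9% and RAB3C from 1.34% to 19.7%. The summed level of the 3 was 101 and 99.2 TPM in parental and 115 and 118 TPM in overexpressing cells. RPH3A, rabphilin, an effector that binds RAB3 in its active state, stood at 0.631 and 0.697 TPM in parental cells and 3.54 and 4.2 TPM in overexpressing cells, against 4.04 and 4.99 TPM in the KD control and 2.93 and 3.74 TPM in the knockdown. RPH3A rose by a log2 fold change of 2.39 ± 0.14.

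Of the 12 active zone and priming genes, 9 rose, UNC13B and CADPS were not called, and UNC13C stayed under the mean threshold. UNC13A, which opens syntaxin for SNARE assembly, gave 1.09 and 1.25 TPM in parental and 27.2 and 32.2 TPM in overexpression libraries, and 10.7 and 12.4 TPM in KD control and 7.89 and 7.92 TPM in knockdown libraries. UNC13A rose by a log2 fold change of 4.51 ± 0.08. UNC13B, its paralogue, had a log2 fold change of 0.29 ± 0.05. UNC13A thus went from 8.6% to 63.5% of UNC13 TPM. UNC13C had 38 and 27 counts with overexpression and none in the parental libraries, at least 10.3-fold higher on the floor of 3 counts per library. RIM proteins bind RAB3 and calcium channels. RIMS4, a short form with a single C2 domain, was at 2.46 and 2.55 TPM in the parental libraries, 39 and 46.5 TPM with overexpression, 15 and 16 TPM in the KD control and 11.6 and 12.7 TPM with knockdown. RIMS4 rose by a log2 fold change of 3.95 ± 0.09. RIMS1 stood at 0.14 and 0.189 TPM in parental cells and 2.54 and 3.25 TPM in overexpressing cells, against 2.68 and 3.68 TPM in the KD control and 2.73 and 3.3 TPM in the knockdown. RIMS1 rose by a log2 fold change of 3.97 ± 0.19. RIMS3, also a short form, gave 7.75 and 8.72 TPM in parental and 28.9 and 34.9 TPM in overexpression libraries, and 9.28 and 10.5 TPM in KD control and 8.65 and 8.78 TPM in knockdown libraries. RIMS3 rose by a log2 fold change of 1.8 ± 0.07. RIMS2, the other long form, rose by 1.21 ± 0.08 on the log2 scale. The RIM total was 13.7 and 14.7 TPM in parental and 78.2 and 93.9 TPM in overexpressing cells, in which RIMS4 held 49.7% where it had held 17.6%.

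BSN, Bassoon, a giant scaffold, was at 0.772 and 0.945 TPM in the parental libraries, 11.2 and 12.6 TPM with overexpression, 5.96 and 6.7 TPM in the KD control and 4.94 and 4.9 TPM with knockdown. BSN rose by a log2 fold change of 3.64 ± 0.09. PCLO, the related scaffold Piccolo, rose by 1.22 ± 0.07 and ERC2, an ELKS protein that binds RIM, by 1.35 ± 0.15 on the log2 scale. BSN made up 20.7% of the TPM of the 2 scaffolds in parental cells and 58.3% with overexpression. CADPS and CADPS2 prime dense core vesicles and moved apart. CADPS had a log2 fold change of -0.55 ± 0.06, which was not called, while CADPS2 rose by 1.09 ± 0.18, just inside the fold threshold, and fell out of it without parental replicate 1 (0.90).

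Of the 3 endocytic genes 2 rose. SNAP91, AP180, a clathrin assembly protein of nerve endings, stood at 0.924 and 1.15 TPM in parental cells and 24.2 and 28.3 TPM in overexpressing cells, against 12.9 and 16 TPM in the KD control and 12 and 14.2 TPM in the knockdown. SNAP91 rose by a log2 fold change of 4.5 ± 0.10. AMPH, amphiphysin, which bends membrane and binds dynamin, gave 0.0777 and 0.0932 TPM in parental and 2.78 and 2.25 TPM in overexpression libraries, and 0.033 and 0.0665 TPM in KD control and 0.0964 and 0.0626 TPM in knockdown libraries. AMPH rose by a log2 fold change of 4.71 ± 0.31. AMPH had 3 to 9 counts in the libraries of the knockdown experiment and was not tested there. DNM1, the dynamin that cuts vesicles off, had a log2 fold change of 0.48 ± 0.05, with an adjusted p of 4.49e-07 by edgeR's test and less than the fold threshold.

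Knockdown moved the genes by less. The log2 fold changes of the 47 genes tested lay between -0.78 and 0.48. At an adjusted p below 0.05 with a mean above 20 and no threshold on the fold, 4 genes rose, where 13.6% of all genes tested did, and 12 fell, where 11.3% did. Under the same rule in the overexpression comparison, 39 rose, where 26.9% of all genes did, and 5 fell, where 28% did. In TMM-normalized counts both knockdown libraries lay below both control libraries for 21 genes, where 28.8% of all 22619 genes did, and above them for 10, where 28.9% did, and the groups overlapped for 19.

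Among vesicle proteins, SYP fell (log2 fold change -0.33 ± 0.08), as did SYNGR3 (log2 fold change -0.33 ± 0.09) and SV2C (log2 fold change -0.25 ± 0.07). Among SNAREs, SNAP25 fell (log2 fold change -0.45 ± 0.09), and VAMP1 fell from 5.73 and 5.44 TPM to 3.6 and 3.27 TPM (log2 fold change -0.59 ± 0.13). Both complexins fell, CPLX1 (log2 fold change -0.24 ± 0.07) and CPLX2 (log2 fold change -0.35 ± 0.07). SYT12 had the largest change of the knockdown, from 3.81 and 4.12 TPM to 2.27 and 1.99 TPM (log2 fold change -0.78 ± 0.10). SYT14 was the 1 synaptotagmin that rose under this rule (log2 fold change 0.44 ± 0.05). SYT9, with a log2 fold change of 0.40 ± 0.14, narrowly missed it (adjusted p of 0.0516 by edgeR's quasi-likelihood test). RAB3C fell (log2 fold change -0.65 ± 0.07) and RAB3B rose (log2 fold change 0.48 ± 0.05), so that the share of RAB3B in RAB3 TPM went from 54.6% in the KD control to 66.9% and that of RAB3C from 24.7% to 13.9%. UNC13A fell (log2 fold change -0.43 ± 0.07) and UNC13B rose from 11.1 and 11.2 TPM to 12 and 11.6 TPM (log2 fold change 0.20 ± 0.05), the share of UNC13A in UNC13 TPM going from 50.8% to 40.1%. RIMS4 fell (log2 fold change -0.24 ± 0.08), as did BSN (log2 fold change -0.25 ± 0.07), and CADPS rose (log2 fold change 0.19 ± 0.06). The adjusted p of these 16 genes, which leave out SYT9, lay between 1.59e-05 and 0.0359 by edgeR's quasi-likelihood test. Of them, SYP, SYNGR3, SV2C, CPLX1, UNC13B, RIMS4, BSN and CADPS each passed 0.05 no longer when 1 of the 4 libraries was left out.

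In both comparisons 16 genes had an adjusted p below 0.05 and a mean above 20, and 13 of these moved in opposite directions, 10 higher with overexpression and lower with knockdown and 3, SYT14, RAB3B and CADPS, the other way round. The 3 that moved the same way were UNC13B, higher in both, and SYT12 and VAMP1, lower in both. With overexpression the log2 fold change of SYT12, -0.43, was -0.41 without parental replicate 2 and -0.23 without overexpression replicate 2. Over all genes, 3638 met this rule in both comparisons and 2251 of them (61.9%) moved in opposite directions, against 81.2% of the 16. The 2 comparisons share no library.

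The overexpression effect minus the knockdown effect, tested in 1 model of all 8 libraries, was called above 0 for 35 genes, where 11.1% of the 22619 genes tested were, and below 0 for 2, SYT14 and RAB3B, where 7.63% were. Those 35 were the same genes as the ones called higher with overexpression, whose libraries this test uses again. The difference of RAB3B was -1.59 ± 0.08 on the log2 scale and that of SYT14 -1.11 ± 0.07. Among genes with a mean normalized count above 100, the largest differences were those of SYT13 (6.17 ± 0.36), CPLX1 (6.12 ± 0.12) and SYT5 (5.87 ± 0.18). The knockdown lowered ZMYND8 by about 1 on the log2 scale and overexpression raised it by 5.86, so the effects were measured at unequal doses. Dox and the starting levels in the controls differed as well. The part of each in the sizes of the effects was not tested and cannot be told apart.

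The 2 control groups were themselves far apart. In TMM-normalized counts, 28 of the 50 genes were at least 2-fold higher in the KD control than in parental cells without overlap, where 10.6% of all 22619 genes were, and none was at least 2-fold lower, where 9.83% were. The log2 ratio of the group means was 5.02 for SYN2, 4.71 for SYN1, 4.45 for RIMS1 and 4.41 for CPLX1. SV2A, SYT1 and UNC13B were among the genes with little difference (-0.14, 0.17 and 0.02). Experiment and Dox differ between these controls, and whether a vector does is not given in the sources used here. Their parts cannot be told apart, and no test was made.

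Markers of other cell states moved with these genes. The summed level of the 10 noradrenergic markers was 483 to 503 TPM in parental, 1877 to 2137 TPM in overexpressing, 1257 to 1432 TPM in KD control and 987 to 1117 TPM in knockdown cells. The 10 mesenchymal markers summed to 5938 to 6545 TPM in parental, 2634 to 2747 TPM in overexpressing, 2371 to 2467 TPM in KD control and 2715 to 2897 TPM in knockdown cells. Of 7 general neuronal markers 5 rose with overexpression, and their sum went from 39.2 to 40.4 TPM up to 526 to 589 TPM, with 745 to 859 TPM in the KD control and 579 to 660 TPM in the knockdown. Schwann cell markers summed to 2.49 to 10.4 TPM over the 8 libraries with SOX10 at 0 or 1 counts, and astrocyte markers to 0.108 to 1.25 TPM with AQP4 at 0 to 13 counts. The 5 muscle markers summed to 90.8 to 92.1 TPM in parental and 46.0 to 46.9 TPM in overexpressing cells. Their sum was 94.0 to 97.4 TPM in the KD control and 87.8 to 92.8 TPM in the knockdown, with MYOG at 0 in every library. Of the 6 Schwann markers 4 were tested with overexpression and 2 called higher, and of the 4 astrocyte markers 4 and 2. Of the 5 muscle markers 2 were tested and 1 called lower. These counts and the 5 of 7 neuronal markers stand beside 11.7% of all genes tested called higher and 6.79% lower. No marker of the 6 lists was called in the knockdown, where 1.34% of all genes tested were called higher and 0.551% lower. At an adjusted p below 0.05 there by edgeR's test, with a mean above 20 and no fold threshold, 4 noradrenergic and 2 neuronal markers fell and none rose, and 6 mesenchymal markers rose and 2 fell, against the 13.6% and 11.3% of all genes that rose and fell under this rule. The part of the marker shifts in the vesicle gene results was not tested.

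**Figure D4:**
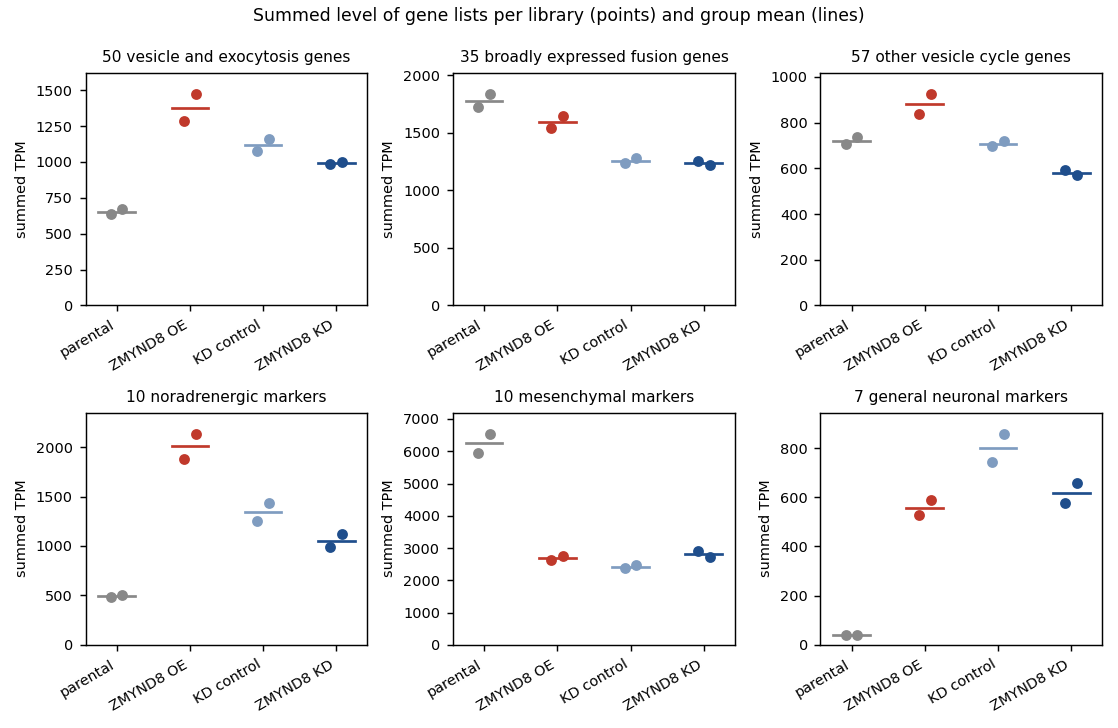
Summed TPM of the 50 genes, of 2 lists of related genes and of 3 marker lists, by group, with 1 point per library and a line at the group mean. The 50 genes and the noradrenergic and neuronal markers were lowest in parental cells, where the mesenchymal markers were highest, and the broadly expressed fusion genes were also highest in parental cells.

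Related genes served for comparison. Of 35 broadly expressed paralogues and fusion factors, such as SNAP23, NSF and the exocyst subunits, 34 were tested with overexpression. Of these, 2 were called higher and none lower, where 11.7% and 6.79% of all genes tested were. Their median log2 fold change was -0.22. At an adjusted p below 0.05 by edgeR's test, with a mean above 20 and no fold threshold, 4 were higher and 21 lower. Over all genes, 26.9% were higher and 28% lower under this rule. The 2 called higher were UNC13D, at 2.29 and 2.28 TPM in parental and 30.9 and 34.8 TPM in overexpressing cells (log2 fold change 3.70 ± 0.08), and STXBP2 (1.32 ± 0.24). Their names are given because the count was small. In the knockdown none of the 35 was called by edgeR's test, where 1.34% of all genes tested were called higher and 0.551% lower. At an unadjusted p below 0.05 in that test 10 were higher and 5 lower, where 19.3% and 17.3% of all genes were. Of 57 other genes of the vesicle cycle, 50 were tested with overexpression, and their median log2 fold change was 0.93. Of these, 17 were called higher, where 11.7% of all genes tested were, and 3 lower, where 6.79% were. SLC32A1, the vesicular transporter of GABA and glycine, was listed at 0 in the parental libraries and at 1.8 and 3.98 TPM with overexpression. LIN7A, an adaptor of synaptic scaffolds, went from 0.0126 and 0 TPM to 0.86 and 0.753 TPM. PPFIA2, a liprin of the active zone, rose by 5.2 ± 0.2 and SVOP, a relative of SV2, by 5.15 ± 0.15 on the log2 scale. The 3 lower were RAB27B, a GTPase of secretory granules (-2.42 ± 0.07), SYTL3 (-1.6 ± 0.15) and SNCG (-1.06 ± 0.32). In the knockdown 44 of the 57 were tested, SNCG rose by 1.72 ± 0.28 and RAB27B fell, with a log2 fold change of -1.09 ± 0.06, the only 2 of the list called there. Over all genes tested there, 1.34% were called higher and 0.551% lower.

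The 50 genes lay on 19 chromosomes, at most 7 of them on 1, chromosome 1. Their genomic span had a median of 87375 bases, against 34629 bases over the 14628 protein-coding genes tested with overexpression, and 38 of the 50 were longer than that median. Of the 50, 26 fell in the longest of 4 equal classes of all these genes by span, and 20 of these 26 were called higher, where 19.7% of all genes of that class were. In the 3 shorter classes, from the shortest, 12%, 9.27% and 9.84% of all genes were called higher, and 5 of 7, 2 of 5 and 8 of 12 of the vesicle genes. The median summed exon length was 6796 bases for the 50 genes and 5227 over all, and the median exonic GC content 50.5% and 48.2%.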

How the data were processed

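RNA was measured in 8 libraries of rRNA-depleted total RNA, grouped by title and treatment as labelled, and each column of the table was matched to a library through the name its title holds. The authors deposited raw counts, whole-number read counts for each gene, not normalized. Per the methods, paired reads were trimmed with Trim_Galore, those with a Phred score below 25 were discarded, HISAT2 aligned the remainder to GRCh38, and featureCounts assigned them to genes of GENCODE release 28. The submitters' processing notes name HISAT2, DESeq2 and hg38. The strand setting is not given in the sources used here, so values of genes with an overlapping neighbour, sense or antisense, are uncertain. Of 60662 lines, 3 belong to 1 gene split over several lines and were left out. Symbols came from GENCODE release 44, which matched 60418 of the 60659 identifiers, including all 50 genes reported. Coordinates are those of the table or, for promoter windows, of RefSeq on GRCh38.p14.

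For each experiment alone, filterByExpr removed genes with few counts, TMM gave the scaling, and edgeR's quasi-likelihood test (two-sided) was run over all genes (edgeR 4.0.16, limma 3.58.1, R 4.3.3), with Benjamini-Hochberg adjustment. Calls needed an adjusted p under 0.05, a 2-fold change in either direction and an average normalized count over 20, thresholds set after the methods, which use an unadjusted p. The difference of the effects was tested in 1 model of all 8 libraries. TPM was computed from the counts and the summed exon length of the table. Genes with 3 counts or fewer in each parental library were given by their counts, with a lower bound on a floor of 3 counts per library where the parental libraries held none and otherwise a ratio with an exact 95% counting interval. These intervals and floors cover counting error only, since reads were not collapsed to molecules. The tests were tested on simulated data with known changes before use. With 2 libraries per group, a p measures the spread between these samples, which the labels call biological replicates without naming separate cultures. No 2 replicates agreed as closely as counting noise, the chi-square per degree of freedom being 5.52 to 7.97.

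The genes and lists were chosen with earlier results of these data known, so no p is given for a list. Every gene of the 50 is accounted for, and levels in every library are given for the 30 with the largest fold change among those called and for the 10 with the highest mean TPM. Of the related lists, at most the 4 largest changes called in a comparison are named, apart from 2 small counts whose genes were named after their values were seen. The alternatives tried were DESeq2 1.42.0, upper quartile and RLE normalization, no filter, no fold threshold, a mean above 100, all libraries in 1 fit, corrections for gene length and GC content, a replicate block, and leaving out each library. A fit without mitochondrial genes and ZMYND8 was chosen after seeing the data.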

Additional observations from a re-analysis of the deposited data

Results flagged for a closer look

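The effect of overexpression differed from that of knockdown for 37 of the 50 genes, by the test of the difference in 1 model over all 8 libraries (edgeR's quasi-likelihood test, adjusted p below 0.05, absolute difference of at least 1 on the log2 scale, mean normalized count above 20). The values below are overexpression effect minus knockdown effect on that scale, and all but 2 were above 0. The 35 above 0 were the same genes as those called higher with overexpression, and the test uses the same libraries. Since the knockdown effects tested lay between -0.78 and 0.48, these values largely restate the overexpression effects. The dose of ZMYND8, Dox and the starting level in the control all differed between the 2 experiments, and the construct of the knockdown is not given in the sources used here. The part of each in these differences cannot be told apart. Among vesicle proteins the difference was 4.38 for SYN1, 5.01 for SYN2, 4.75 for SYN3, 5.09 for SYP, 1.36 for SYNGR1, 1.86 for SYNGR3, 6.78 for SV2B and 3.35 for SV2C. For the synaptotagmins it came to 2.14 for SYT3, 2.26 for SYT4, 5.87 for SYT5, 3.72 for SYT7, 4.02 for SYT9, 6.17 for SYT13, -1.11 for SYT14, 4.9 for SYT16 and 4.32 for SYT17. Of the SNAREs, only SNAP25 passed, with 2.04 for SNAP25. The SNARE regulators stood at 6.12 for CPLX1, 5.64 for CPLX2, 1.49 for DOC2A and 6.95 for DOC2B. RAB3 proteins and rabphilin gave 1.98 for RAB3A, -1.59 for RAB3B, 4.58 for RAB3C and 2.7 for RPH3A. Active zone and priming genes had 4.94 for UNC13A, 3.92 for RIMS1, 1.44 for RIMS2, 1.87 for RIMS3, 4.18 for RIMS4, 3.88 for BSN, 1.32 for PCLO, 1.12 for ERC2 and 1.6 for CADPS2. The endocytic genes gave 4.53 for SNAP91 and 3.94 for AMPH. The difference of SYT14 lost its call under each correction for gene length, that of SV2B when either overexpression replicate was left out, and that of DOC2B without overexpression replicate 2. Taken as an unlogged fold, the difference moved by over 1.5 times for 3 genes when 1 library was left out. On the log2 scale, SV2B was 6.04 without parental replicate 1 and 9.18 without parental replicate 2. DOC2B was 7.59 without overexpression replicate 1 and 5.86 without overexpression replicate 2. SYT9 was 4.83 without parental replicate 2, and 3.56 at the lowest of all alternatives.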

How the results depend on the processing

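The 35 higher calls with overexpression ranged from 31 to 39 over the alternatives. The same 36 genes were called with RLE or upper quartile normalization, DESeq2, no filter, all 8 libraries in 1 fit, the replicate block, and without mitochondrial genes and ZMYND8, an alternative chosen after seeing the data. A mean above 100 lost SYN3, SV2B, DOC2B and AMPH. Without a fold threshold 5 genes were lower with overexpression, and in the knockdown 4 were higher and 12 lower. Each of the 3 corrections for gene length left 0 genes lower with overexpression, RAB3B losing its call, and 1 in the difference of effects, SYT14 losing its call. The count of calls in the knockdown stayed 0 under every alternative other than that without a fold threshold. In DESeq2 the adjusted p of CPLX1 (0.0647) and RIMS4 (0.0768) in the knockdown lay above 0.05, as did those of SYT12 (0.0529) and VAMP1 (0.0664) with overexpression. In the knockdown the adjusted p of UNC13B and CADPS lay above 0.05 with the gene length correction (0.0673 and 0.0799) and with length and GC correction (0.0683 and 0.0734), as did CPLX1 with the latter (0.0766).

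Leaving out 1 library at a time, the median log2 fold change of the genes ranged from 2.10 to 2.32 with overexpression and from 2.22 to 2.64 for the difference of effects (the cause was not tested). The higher calls with overexpression ranged from 34 to 35 and those of the difference from 33 to 35. A fit that leaves out a library has 1 sample in a group, which is assumed to vary like the others. SV2A and SYT1, near 0 with overexpression, changed sign, SV2A to 0.016 under upper quartile normalization, and SYT1 to 0.0721 under that normalization, 0.0412 and 0.0404 with the gene length correction with and without the replicate block, 0.11 with length and GC correction, and -0.0357 to 0.0189 on leaving out a library. Upper quartile normalization moved the median of all genes from 0.03 to 0.11 with overexpression, and RLE moved that of the difference of effects from 0.06 to 0.00.

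Replicate numbers are shared between groups, but the labels name no batch or day behind them, and deviations of same-numbered libraries correlated at 0.0088 with overexpression and -0.0073 with knockdown. The replicate block changed no call among the 50 genes, with 36 called with overexpression, 0 with knockdown and 37 for the difference. Depth limits SYT6, UNC13C, SV2B and DOC2B, which had at most 1 count in a parental library. The ratio of summed TPM, 2.11 with overexpression and 0.89 with knockdown, was 2.11 and 0.90 without mitochondrial genes and ZMYND8.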
